A study of Mus musculus with 2 samples.

Results

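The proteasome genes described here are the rows of the deposited gene table whose symbol begins with Psma, Psmb, Psmc, Psmd, Psme, Psmf or Psmg followed by a digit. They were chosen by name and not by their measured values, and they number 49 of the 14678 genes in the table. Psmc3ip was matched by its spelling alone. It encodes a partner of meiotic recombination proteins, and without it 48 proteasome genes remain. RNA was measured in uteri at gestation day 2.5, before the embryo implants, from mice of the genotype VEGFtetO/tetO/beta-AKtg/wt. In these mice tet operator sequences sit in the promoter of Vegfa on each allele, and a tetR-Krab repressor is expressed throughout the body from a β-actin promoter. Dox+ mice ate chow with doxycycline, which releases the repressor, so that VEGF was expressed as normal (labelled VEGF-normal). Dox− mice, adult littermates of the same genotype, had been taken off doxycycline after weaning, so that VEGF was repressed (labelled VEGF-repression). The paper reports a partial loss of VEGF mRNA and protein in the uterus, and the repressor was not confined to the uterus. Every mouse of either condition carried the operators and the repressor, and doxycycline intake differed together with VEGF. For each condition the RNA of 3 uteri was pooled, and 1 library was sequenced by digital gene expression profiling, which counts short tags and assigns them to genes. With 1 library per condition no difference has a replicate check, and intervals below cover counting error only.

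The proteasome is the protease that degrades most short-lived proteins of the cytosol and nucleus after they are marked with ubiquitin. Its barrel-shaped core particle is built from rings of alpha subunits, which gate the entry, and rings of beta subunits, which hold the cutting sites. A regulatory particle with a ring of ATPases and a lid of non-ATPase subunits binds, unfolds and feeds in the substrate. In leukocytes and in cells exposed to interferon gamma, the catalytic beta subunits Psmb5, Psmb6 and Psmb7 can be replaced by Psmb8, Psmb9 and Psmb10 to form the immunoproteasome, which favours peptides for MHC class I presentation.

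The tags counted per gene summed to 4437506 in Dox+ and 4218459 in Dox−. The TPM values in the table, which scale the tags of a gene by the clean tags of its library, imply 5985925 and 5844314 clean tags, which were used as library sizes. Vegfa fell from 247 copies in Dox+ to 125 in Dox−, in the direction of its repression. Uterine markers were present, with Hoxa10 at 3120 and 1060 copies and Pgr, the progesterone receptor, at 687 and 1251. Marker lists of the cell types in the uterus differed between the libraries. The summed copies of 12 epithelial markers were 1.36-fold higher in Dox− (95% interval 1.32 to 1.40). Of the 11 tested by the rule given below, 5 were called higher and 2 lower. These are 45.5% and 18.2%, beside 15.2% and 14.7% of all genes tested. Summed markers of the myometrium, the smooth muscle wall, were at 0.689-fold (0.679 to 0.700), those of the stroma at 0.785-fold (0.771 to 0.798) and those of the endothelium at 0.668-fold (0.616 to 0.724). None of these was called higher. Called lower were 4 of 8 tested in the myometrium, 4 of 7 in the stroma and 3 of 5 in the endothelium. Col3a1 held 18514 of the 29344 stroma copies in Dox+, and Dcn, at 1146 and 1407 copies, went the other way. Every list was represented in both libraries, and the only marker without a tag in a library was Wnt4, with 0 copies in Dox+ and 18 in Dox−. In whole uteri a different number of cells of a type and a different amount of RNA per cell cannot be told apart, and the part of these cell types in the results on the proteasome genes was not tested.

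Proteasome transcripts took up slightly more of the Dox− library. The 49 genes held 30475 tags in Dox+, or 0.509% of the clean tags (exact 95% interval 0.503 to 0.515), and 32622 tags in Dox−, or 0.558% (0.552 to 0.564). The summed fold, Dox− over Dox+, was 1.10 (1.08 to 1.11). The genes were tested with all others that had a combined copy number of at least 200, by the two-sided Audic-Claverie test on the counts of the libraries. A gene was called where the FDR was under 0.05 and the libraries differed at least 1.5-fold. This test compares the 2 libraries and not the conditions. Among the 49 genes 44 had enough copies, and the 5 that did not were Psma8, Psmb9, Psmb11, Psmf1 and Psmc3ip.

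Of the 44 genes tested, 8 were called higher in Dox−, which is 18.2% against 15.2% of all 6547 genes tested. Only Psmc4 was called lower, 2.27% against 14.7% of all genes. The genes called higher were the alpha subunits Psma3, Psma4 and Psma7, the ATPases Psmc2 and Psmc6, the lid subunit Psmd7, the ubiquitin receptor Psmd4 and the activator Psme4. None of the 9 calls reached a fold change of 2, and none was kept by edgeR with an assumed coefficient of variation of 0.2 between pools. For the 44 genes the log2 ratio had a median of 0.07, beside 0.03 over all genes tested, so the middle of the list lay close to the middle of the library. Without the activators and the Psmg chaperones the median was 0.19. The interval of the fold change lay above 1 for 19 genes, 43.2% against 34.8% of all genes, and below 1 for 10 genes, 22.7% against 31.5%. The log2 ratios ranged from -0.79 for Psmc4 to 0.83 for Psmc2. Their standard deviation was 0.42, while counting error alone was 0.11 (root mean square), so the members differed among themselves by more than their counts allow for. Quartiles of the members were -0.15 and 0.46, a range no wider than that of all genes tested, with quartiles of -0.36 and 0.40. The median member had 548 copies in Dox+ and the median tested gene 251, so the intervals of the proteasome genes are narrower than those of a typical gene.

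**Figure D1:**
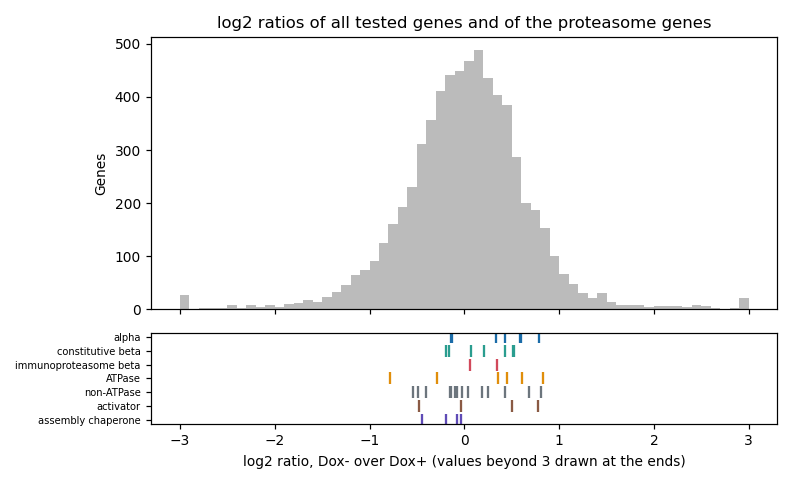
The histogram gives the number of genes (vertical axis) by log2 ratio, Dox− over Dox+ (horizontal axis), for the 6546 tested genes with tags in both libraries, with 42 genes beyond a log2 ratio of 3 in either direction drawn at the ends, and the strip below marks each tested proteasome gene by class. The alpha, constitutive beta and ATPase ticks lie mostly right of 0 and the assembly chaperones left of it, but all lie within the bulk of the histogram.

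Promoter sequences are shown for all 6 members with a match to the antioxidant response element, and for Psme1, Psmb8, Psmc2 and Psmc4, which were chosen after their values were seen. They are the RefSeq windows (GRCm38.p6) from 250 bases before to 50 after a transcript start, written 5′ to 3′ on the strand of the gene, and 41 of the 49 genes had one. Each was placed on NCBIM37, the assembly that the UCSC browser calls mm9, by an exact match that was unique for all 44 windows. Capitals mark matches, on either strand, to TGACNNNGC (the core of the antioxidant response element, bound by Nfe2l1 and Nfe2l2), to a pair of GAAA runs with 2 bases between them (the core of the interferon-stimulated response element), TTCNNNGAA (the gamma-activated sequence) or CCAAT. For Psmc2, which has a further window without a match, the window that starts first is shown.
Psmb5 promoter, chr14:55236783-55237082, minus strand: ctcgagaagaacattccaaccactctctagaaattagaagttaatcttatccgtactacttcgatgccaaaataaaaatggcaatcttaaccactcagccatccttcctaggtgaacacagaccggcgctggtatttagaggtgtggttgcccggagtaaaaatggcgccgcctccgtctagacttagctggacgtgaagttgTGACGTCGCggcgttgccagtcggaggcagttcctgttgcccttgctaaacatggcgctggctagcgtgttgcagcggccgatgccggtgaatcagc
Psmc6 promoter, chr14:45949249-45949548, plus strand: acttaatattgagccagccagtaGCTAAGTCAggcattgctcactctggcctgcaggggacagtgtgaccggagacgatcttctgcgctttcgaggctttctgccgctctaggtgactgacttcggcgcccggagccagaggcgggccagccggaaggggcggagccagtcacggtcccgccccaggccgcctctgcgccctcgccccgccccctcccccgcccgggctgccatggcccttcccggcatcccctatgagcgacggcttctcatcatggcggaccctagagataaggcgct
Psme4 promoter, chr11:30671525-30671824, plus strand: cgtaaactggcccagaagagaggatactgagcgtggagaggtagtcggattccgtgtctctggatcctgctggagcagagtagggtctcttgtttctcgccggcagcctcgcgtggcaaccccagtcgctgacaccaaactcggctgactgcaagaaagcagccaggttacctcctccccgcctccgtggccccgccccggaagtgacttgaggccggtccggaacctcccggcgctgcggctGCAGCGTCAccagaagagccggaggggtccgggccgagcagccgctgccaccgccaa
Psmb6 promoter, chr11:70338609-70338908, plus strand: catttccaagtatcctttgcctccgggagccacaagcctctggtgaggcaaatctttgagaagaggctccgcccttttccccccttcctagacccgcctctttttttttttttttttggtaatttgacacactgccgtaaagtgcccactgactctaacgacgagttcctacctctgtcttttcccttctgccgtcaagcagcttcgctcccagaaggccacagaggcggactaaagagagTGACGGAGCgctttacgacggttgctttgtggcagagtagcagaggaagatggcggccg
Psmd12 promoter, chr11:107340592-107340891, plus strand: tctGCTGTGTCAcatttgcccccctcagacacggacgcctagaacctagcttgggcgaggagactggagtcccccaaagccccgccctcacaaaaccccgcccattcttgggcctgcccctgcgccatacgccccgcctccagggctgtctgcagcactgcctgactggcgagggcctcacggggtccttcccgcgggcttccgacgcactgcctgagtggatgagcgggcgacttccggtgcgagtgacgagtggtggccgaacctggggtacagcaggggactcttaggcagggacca
Psmd9 promoter, chr5:123677949-123678248, plus strand: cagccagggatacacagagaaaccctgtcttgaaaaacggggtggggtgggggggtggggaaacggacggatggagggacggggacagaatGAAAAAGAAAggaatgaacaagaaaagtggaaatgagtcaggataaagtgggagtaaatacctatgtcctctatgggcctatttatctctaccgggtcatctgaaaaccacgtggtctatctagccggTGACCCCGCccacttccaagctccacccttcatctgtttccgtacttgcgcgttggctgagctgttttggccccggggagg
Psme1 promoter, chr14:56197081-56197380, plus strand: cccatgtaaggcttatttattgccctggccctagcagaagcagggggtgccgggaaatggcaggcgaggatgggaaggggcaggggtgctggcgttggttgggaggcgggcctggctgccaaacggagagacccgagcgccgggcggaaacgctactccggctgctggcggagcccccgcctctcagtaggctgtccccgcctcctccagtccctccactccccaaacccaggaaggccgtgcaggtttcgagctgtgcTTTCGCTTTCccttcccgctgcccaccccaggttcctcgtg
Psmb8 promoter, chr17:34334890-34335189, plus strand: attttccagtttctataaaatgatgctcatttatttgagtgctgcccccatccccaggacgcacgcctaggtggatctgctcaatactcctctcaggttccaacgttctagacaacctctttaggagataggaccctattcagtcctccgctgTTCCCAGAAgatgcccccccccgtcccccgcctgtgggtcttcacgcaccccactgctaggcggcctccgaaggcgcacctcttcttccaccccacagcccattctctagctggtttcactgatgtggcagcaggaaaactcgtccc
Psmc2 promoter, chr5:21290843-21291142, plus strand: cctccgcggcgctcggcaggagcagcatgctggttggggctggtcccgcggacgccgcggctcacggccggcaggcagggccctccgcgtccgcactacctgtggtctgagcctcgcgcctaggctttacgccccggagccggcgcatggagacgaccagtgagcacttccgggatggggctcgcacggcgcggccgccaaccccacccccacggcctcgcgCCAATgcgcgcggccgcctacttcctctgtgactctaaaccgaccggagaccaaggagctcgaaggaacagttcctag
Psmc4 promoter, chr7:28835062-28835361, minus strand: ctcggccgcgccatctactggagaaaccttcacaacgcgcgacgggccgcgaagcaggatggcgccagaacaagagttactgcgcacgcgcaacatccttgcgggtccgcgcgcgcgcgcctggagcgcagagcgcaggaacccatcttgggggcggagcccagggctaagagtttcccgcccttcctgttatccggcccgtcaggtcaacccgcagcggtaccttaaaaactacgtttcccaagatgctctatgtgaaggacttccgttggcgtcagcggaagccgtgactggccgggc

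The antioxidant response element core was found in the promoters of 6 members, 14.6% of those with a window, beside 17.2% of the 5277 tested genes with a window and 12.4% of all 32851 windows. In Psmb5 it starts 47 bases before the transcript start and in Psme4 7 bases before it. The log2 ratios of the members with this core were 0.78 for Psme4, 0.61 for Psmc6, 0.53 for Psmb5 and 0.43 for Psmb6, but -0.49 for Psmd12 and -0.54 for Psmd9. The interferon-stimulated core was found in 5 members, 12.2%, beside 3.52% of the tested genes and 3.44% of all windows. These were Psmb3, Psmd4, Psmd9, Psme1 and Psmg4, with log2 ratios of 0.51, 0.81, -0.54, -0.48 and -0.45. The gamma-activated sequence was found in Psmb8, 97 bases before the start, and in Psmd2 and Psmg1, 7.32% of members beside 7.75% of tested genes and 8.30% of all windows. CCAAT was found in 36.6% of members, beside 42.1% of tested genes and 37.4% of all windows, and the only matches that overlapped each other were a CCAAT pair in Psmd14. No match to any of these motifs was found in the window of Psmc4. A match is a run of letters and not a measured binding site, and members with the same motif had log2 ratios on both sides of 0.

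The alpha subunits form the outer rings of the core particle, and 3 of the 7 tested were called higher in Dox− with none called lower, beside 15.2% and 14.7% of all genes tested. Psma4 rose from 285 to 480 copies, 1.73-fold (95% interval 1.49 to 2.0). Psma3 rose from 1139 to 1679 copies, 1.51-fold (1.40 to 1.63), and Psma7 from 734 to 1079 copies, also 1.51-fold (1.37 to 1.66). The folds of Psma3 and Psma7 lie just past the threshold of 1.5, the lower end of each interval lies below it, and neither gene was called with TMM or DESeq2 library sizes. Psma2 had 927 copies in Dox+ and 1218 in Dox−, and Psma6 had 1206 and 1482. Their intervals lay above 1 without reaching the fold threshold. Psma1 had 479 and 428 copies, a difference within counting error. Psma5 had 1507 copies in Dox+ and 1332 in Dox−, 0.905-fold (0.840 to 0.975), the lowest of the tested alpha subunits. The interval of Psma5 lay below 1 and those of 5 others above it. Psma8, the alpha subunit of the testis proteasome, had 10 and 3 copies, a ratio of 0.307 with an interval of 0.0543 to 1.19. The summed alpha copies were 1.25-fold higher in Dox− (1.21 to 1.30), and between 1.20 and 1.36 when any 1 gene was left out.

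Of the 7 constitutive beta subunits none was called, although the intervals of 4 lay above 1, beside 34.8% of all genes tested. Psmb5, which carries the chymotrypsin-like site, had 1701 copies in Dox+ and 2394 in Dox−, 1.44-fold (1.35 to 1.53). Psmb6, with the caspase-like site, had 581 and 764 copies, 1.35-fold (1.21 to 1.5). Psmb7, with the trypsin-like site, had 1542 and 1314 copies, 0.873-fold (0.810 to 0.940). The catalytic subunits thus lay on either side of 1. Of the structural beta subunits, Psmb3 had 531 and 740 copies, a log2 ratio of 0.51, and Psmb4 had 494 and 557 copies, a log2 ratio of 0.21. Psmb1 had 2516 and 2578 copies and Psmb2 562 and 491, both within counting error. Psmb1 and Psmb5 had the highest levels of the proteasome genes matched by name, at 420 and 284 TPM in Dox+ and 441 and 410 in Dox−. In TPM per kilobase of the longest coding transcript, Psmb1 stood at 406 in Dox+ and 426 in Dox−, and Psmb5 at 326 and 470. Only with this division was Psmb5 above Psmb1 in Dox−. Copies did not rise with transcript length across genes (Spearman correlation -0.22 in Dox+), so dividing by length can inflate short transcripts. The summed constitutive beta copies were 1.14-fold higher in Dox− (1.11 to 1.18), and 1.06-fold (1.02 to 1.10) without Psmb5.

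**Figure D2:**
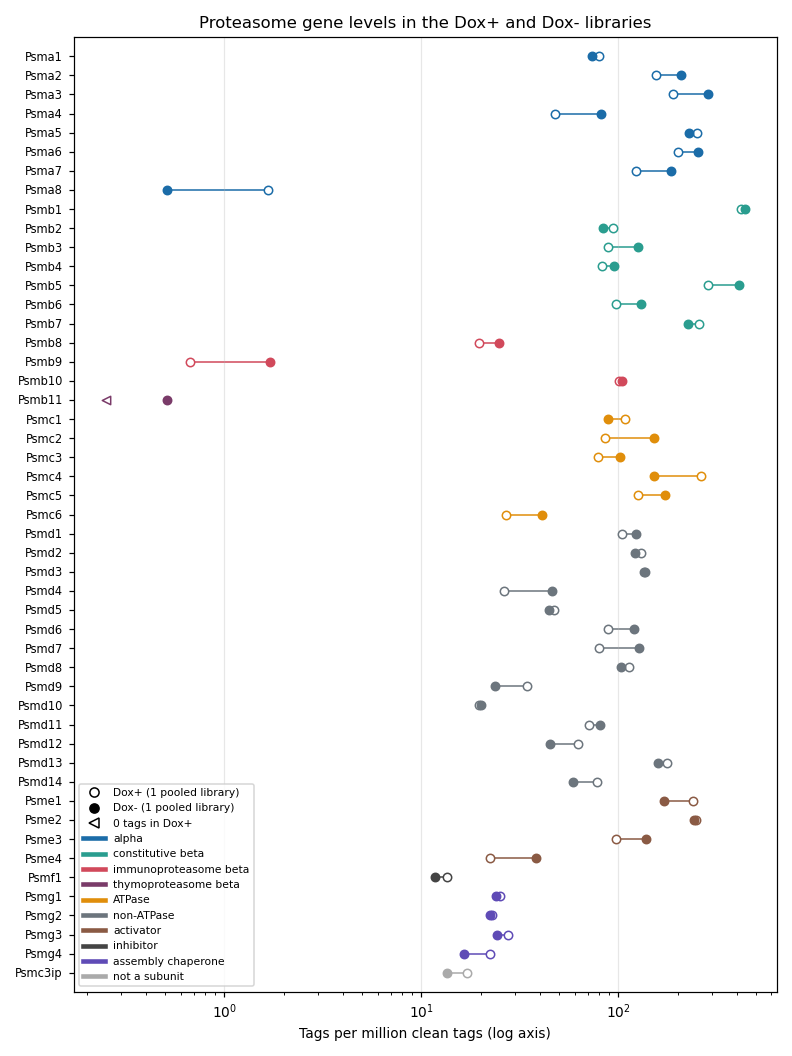
The level of each proteasome gene in TPM (log axis, tags scaled by the clean tags of the library) is drawn as an open point for the Dox+ library and a filled point for the Dox− library, coloured by class, with a triangle where a gene had 0 tags. Psmb1, at 420 and 441, and Psmb5, at 284 and 410, lie highest, the Psmg chaperones lie between 16.4 and 27.6, and Psma8, Psmb9 and Psmb11 lie below 2.

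The immunoproteasome subunits were present at very different levels and none was called. Psmb10, which takes the place of Psmb7, had 602 copies in Dox+ and 614 in Dox−, 1.04-fold (0.932 to 1.17). Psmb8, the counterpart of Psmb5, had 117 and 145 copies, 1.27-fold (0.988 to 1.63). Psmb9, which replaces Psmb6, had 4 and 10 copies, 2.56-fold with an interval of 0.739 to 11.2, so that no difference was detectable at this depth. Psmb8 and Psmb9 lie close together in the MHC region of chromosome 17 (NCBIM37, 34334666 to 34338399 and 34318933 to 34324709), and Psmb10 lies on chromosome 8 (108459628 to 108462292). In TPM, without length correction, Psmb10 stood at 101 in Dox+, Psmb8 at 19.5 and Psmb9 at 0.668, beside 284 for Psmb5. Psmb11, the beta subunit of the thymus, had 0 and 3 copies, at or under the floor of 3 copies per library, and no fold was taken. The ratio of an immunoproteasome subunit to its constitutive counterpart within a library does not depend on the library size, and copies are not corrected for length here. For 100 copies of Psmb5 there were 6.88 copies of Psmb8 in Dox+ and 6.06 in Dox−, and the ratio between the libraries was 0.881 (exact 95% interval 0.680 to 1.14). For Psmb9 over Psmb6 the ratio between the libraries was 1.90 (0.545 to 8.34). Psmb10 went from 39.0 to 46.7 copies for 100 copies of Psmb7, a ratio of 1.20 (1.04 to 1.37). Psmb10 over Psmb7 was the only such pair whose interval left out 1, and there it was Psmb7 that differed more between the libraries. The 3 immunoproteasome genes together stood at 0.0912 of the constitutive beta copies in Dox+ and 0.0870 in Dox−, a ratio of 0.954 (0.857 to 1.06).

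Genes that act with the immunoproteasome gave values on either side of 1. Of 11 tested genes of antigen processing and interferon gamma signalling, B2m, the light chain of MHC class I, was called higher at 6681 and 10158 copies, and so was H2-D1 at 349 and 649. They are 18.2% of the list, beside 15.2% of all genes tested, and none was called lower. H2-K1, another class I heavy chain, had 6182 and 4539 copies, and Ifngr1, a chain of the interferon gamma receptor, had 432 and 596. Class I heavy chain genes resemble each other closely, so their tags may have been lost or split between copies. Tap1, which lies beside Psmb9 on chromosome 17 and moves peptides into the endoplasmic reticulum, had 169 and 227 copies. The exons of Tap1 and Psmb9 overlap on opposite strands in the annotation. The summed copies of 14 leukocyte markers were 1.63-fold higher in Dox− (1.57 to 1.69), mostly through Cd74 with 2742 and 4761 copies. Of the 8 of these markers that were tested, Cd74 and Laptm5 were called higher, 25% beside 15.2% of all genes tested. None was called lower, beside 14.7% of all genes tested. The intervals of Tyrobp and Fcer1g, at 211 and 158 and at 177 and 134 copies, lay below 1. Ptprc, the pan-leukocyte antigen, had 49 and 130 copies. The part of leukocytes in the levels of Psmb8, Psmb9 and Psmb10 was not tested.

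The ATPases of the regulatory particle had the widest spread of any class with at least 5 genes tested, with a standard deviation of 0.61 in log2 ratio over 6 genes. Their quartiles were -0.13 and 0.57, a range no wider than that of all genes tested, with quartiles of -0.36 and 0.40. Psmc2 rose from 512 to 888 copies, 1.78-fold (1.59 to 1.98), and Psmc6 from 161 to 240 copies, 1.53-fold (1.25 to 1.88). Psmc6 was not called with DESeq2 size factors. Psmc4 fell from 1570 copies in Dox+ to 887 in Dox−, which is 1.73-fold lower (1.59 to 1.88). Psmc5 had 754 and 1006 copies and Psmc3 had 474 and 594, with log2 ratios of 0.45 and 0.36. Psmc1 had 646 and 517 copies, a log2 ratio of -0.29. The interval of every ATPase left out 1, above it for 4 genes and below it for Psmc1 and Psmc4, beside 34.8% and 31.5% of all genes tested. The 2 ATPases called higher are 33.3% of the class and the 1 called lower 16.7%, beside 15.2% and 14.7% of all genes tested. The ring holds each ATPase once, and its members are known to assemble in pairs, Psmc2 with Psmc1, Psmc4 with Psmc5 and Psmc6 with Psmc3. These pairs and those of the activators below were chosen after the values were seen. For 100 copies of Psmc1 there were 79.3 copies of Psmc2 in Dox+ and 171.8 in Dox−, a ratio between the libraries of 2.17 (1.84 to 2.55). Psmc4 over Psmc5 was 208 for 100 in Dox+ and 88.2 in Dox−, a ratio of 0.424 (0.373 to 0.481). The pair of Psmc6 and Psmc3 differed by less than counting error, at a ratio of 1.19 (0.936 to 1.51). Psmc2 and Psmc4, which had the highest and the lowest log2 ratio of all proteasome genes tested, gave a ratio of 3.07 (2.67 to 3.53). That it lies far from 1 follows from this choice. The summed ATPase copies, 4117 and 4132, gave a fold of 1.03 (0.984 to 1.07). This fold was 1.30 (1.24 to 1.37) without Psmc4 and 0.922 (0.879 to 0.967) without Psmc2.

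**Figure D3:**
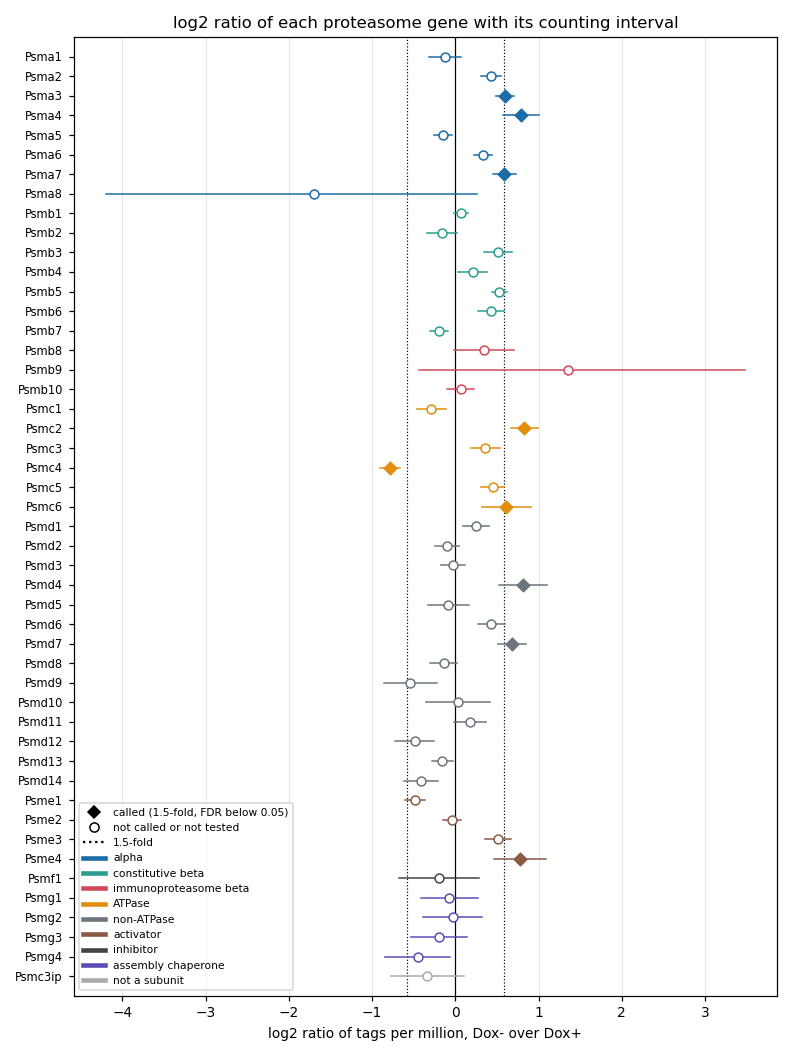
Each point is the log2 ratio of a proteasome gene, Dox− over Dox+, and each bar its 95% counting interval, coloured by class, with dotted lines at a fold of 1.5 and diamonds for the 9 genes called (Psmb11, with 0 tags in Dox+, is not drawn). Psmc2 and Psmc4 stand apart in opposite directions within the ATPases, and Psma8 and Psmb9 have wide bars because of their few copies.

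The non-ATPase subunits of the regulatory particle were 14 genes, of which 2 were called higher and none lower. The 2 are 14.3% of the class, near the 15.2% of all genes tested. Psmd4, which binds ubiquitin chains, rose from 157 to 269 copies, 1.75-fold (1.44 to 2.15). Psmd7, a lid subunit that pairs with the deubiquitinase Psmd14, rose from 478 to 749 copies, 1.60-fold (1.43 to 1.80). Psmd14 itself had 466 copies in Dox+ and 343 in Dox−, a log2 ratio of -0.41 with an interval below 1, so that the ratios of these partners lay on opposite sides of 1. Among the scaffold subunits of the base, Psmd1 had 624 and 722 copies and Psmd2 had 782 and 712. Of the other lid subunits, Psmd6 had 534 and 703 copies, a log2 ratio of 0.43, and Psmd12 had 376 and 262 copies, a log2 ratio of -0.49. Psmd3 had 823 and 789 copies, Psmd8 682 and 605, Psmd11 427 and 473, and Psmd13 1061 and 931, with log2 ratios between -0.15 and 0.18. The 8 lid genes matched by name held 4847 and 4855 copies, a fold of 1.03 (0.986 to 1.07). This sum leaves out the lid subunit Shfm1, whose symbol does not match and which had 2318 and 3312 copies.

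Psmd5, Psmd9 and Psmd10 are chaperones that help assemble the base of the regulatory particle and leave the finished proteasome. Psmd9 had 207 copies in Dox+ and 139 in Dox−, 0.688-fold (0.551 to 0.857), the lowest of the non-ATPase genes, and missed the threshold of 1.5-fold. Psmd5 had 283 and 261 copies and Psmd10 had 117 in each library, both within counting error. The chaperones of the core particle, which guide the assembly of the alpha ring, had log2 ratios from -0.45 to -0.03. Psmg4 had 134 and 96 copies, 0.734-fold (0.559 to 0.961). Psmg2, the highest of them, had 137 and 131 copies, 0.979-fold (0.765 to 1.25). Psmg1 had 151 and 140 copies and Psmg3 165 and 141, both within counting error. Together the Psmg genes had 587 and 508 copies, a fold of 0.886 (0.786 to 1.0). Against the summed core particle copies they stood at 0.0413 in Dox+ and 0.0307 in Dox−, a ratio of 0.743 (0.657 to 0.840). Psmf1, an inhibitor of the core particle, had 81 and 69 copies and was too low to be tested. Psmc3ip had 102 and 79 copies.

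The activators, which cap the core particle in place of the regulatory particle, had log2 ratios on either side of 0. Psme4, a large ATP-independent activator of the nucleus, rose from 134 to 224 copies, 1.71-fold (1.38 to 2.14). Psme3, which forms a nuclear ring of its own, had 585 and 812 copies, 1.42-fold (1.28 to 1.58). Psme1 and Psme2 form a mixed ring that interferon gamma induces, and their genes lie close together on chromosome 14 (NCBIM37), Psme1 from 56196960 to 56200366 and Psme2 from 56206278 to 56209950. Psme1 had 1428 copies in Dox+ and 998 in Dox−, 0.716-fold (0.660 to 0.777). Psme2 had 1487 and 1414 copies, a log2 ratio of -0.04, within counting error. The copies of Psme1 for 100 of Psme2 went from 96.0 to 70.6, a ratio of 0.735 (0.658 to 0.821). Psme4 over Psme1 gave a ratio between the libraries of 2.39 (1.89 to 3.03), and Psme3 over Psme1 gave 1.99 (1.73 to 2.28). The summed activator copies, 3634 and 3448, differed by less than counting error at a fold of 0.972 (0.927 to 1.02). This fold was 1.14 (1.07 to 1.21) without Psme1 and 0.885 (0.840 to 0.933) without Psme3.

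**Figure D4:**
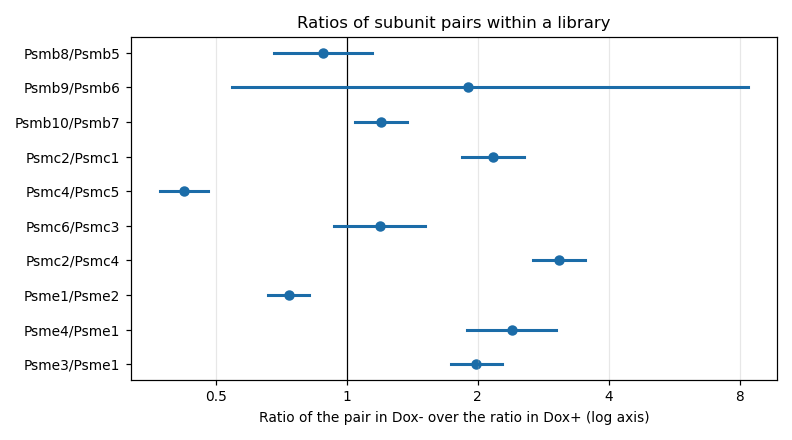
For each pair of genes, the point is the ratio of their copies in the Dox− library over that ratio in the Dox+ library (log axis), and the bar its exact 95% interval. Psmc2 over Psmc4, which joins the highest and the lowest of the tested proteasome genes, lies at 3.07, and Psmc4 over Psmc5 at 0.424. The immunoproteasome pairs Psmb8 over Psmb5 and Psmb9 over Psmb6 have bars that cross 1.

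Between the particles, the 14 alpha and constitutive beta genes, leaving out Psma8, had 14204 copies in Dox+ and 16536 in Dox−, 1.19-fold (1.17 to 1.22). The 17 ATPase, base and lid genes matched by name had 10527 and 10690 copies, 1.04-fold (1.01 to 1.07). Shfm1, a lid subunit with 2318 and 3312 copies, and the ubiquitin receptor Adrm1, with 1236 and 918, are not in this sum. The copies of the core particle over those of the regulatory particle went from 1.35 to 1.55, a ratio of 1.15 (1.11 to 1.19). This ratio does not depend on the library size, but it covers only the genes matched by name. The ratio with Shfm1 and Adrm1 added was not taken. Without Psmc4 the fold of the regulatory particle was 1.12 (1.09 to 1.15), and without Psmb5 that of the core particle was 1.16 (1.13 to 1.19). With size factors of DESeq2 in place of the clean tags, the fold of the core particle was 1.16 (1.14 to 1.19), and that of the regulatory particle was 1.02 with an interval of 0.988 to 1.04 that held 1.

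**Figure D5:**
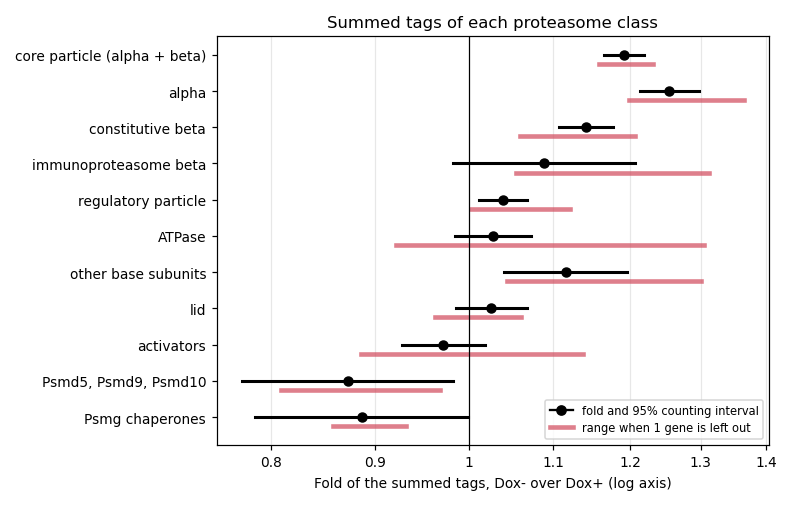
The black points give the fold of the summed tags of each class, Dox− over Dox+ (log axis), with 95% counting intervals, and the red bars the range of folds when any 1 gene is left out. The core particle and its alpha and beta rings stay above 1 throughout, while the red bars of the ATPases, the lid (without Shfm1) and the activators cross 1.

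Other genes of the pathway were followed with short lists. Of 11 tested genes whose products bind the proteasome or help build it, none was called in either direction, and the intervals of 7 lay above 1 and of 2 below it, beside 34.8% and 31.5% of all genes tested. Shfm1, a small lid subunit, had 2318 and 3312 copies, a log2 ratio of 0.55. Pomp, the maturation factor of the core particle, had 416 and 561 copies, while Adrm1, a ubiquitin receptor, had 1236 and 918. Zfand5 had 1568 and 1605 copies and Txnl1 1251 and 1372. Among 11 shuttle factors and partners of the unfoldase Vcp, Rad23b rose from 670 to 1001 copies, Ubqln4 from 178 to 278 and Faf1 from 120 to 238, and Nsfl1c fell from 811 to 505. The 3 called higher are 27.3% of these genes and the 1 called lower 9.09%, beside 15.2% and 14.7% of all genes tested. Vcp itself had 2140 and 2691 copies and was not called.

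Nfe2l1 and Nfe2l2 encode transcription factors known to act on proteasome genes. Nfe2l1 had 939 copies in Dox+ and 941 in Dox−. Nfe2l2 had 32 and 119 copies, a log2 ratio of 1.93 and a fold of 3.81 (2.56 to 5.82). It was not tested because its combined copies were under 200. Bach1, with 24 and 65 copies, Mafk, with 50 and 85, and Maff, with 4 and 13, were also untested and had intervals above 1. The intervals of Mafg and Ddi2, untested too, held 1. Keap1, which directs the Nfe2l2 protein to degradation, had 461 and 428 copies, and of the 8 genes of this list only Nfe2l1 and Keap1 were tested, with neither called.

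Some values rest on tags that are hard to assign. RefSeq names a further copy or pseudogene of Psma5, Psmb5, Psmb6, Psmb7 and Psme2, and tags that matched more than 1 gene were not counted. For 11 of the 49 genes an exon overlaps an exon of another gene on the opposite strand, among them Psma4, Psmb7, Psmb9, Psmc3 and Psme1, and tags were searched in sense and antisense, with no strand given in the table. Psmc2, Psmc4, Psmd4, Psmd7 and Psme4 had neither.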

How the data were processed

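Total RNA of 3 uteri per condition was pooled, and 1 Dox+ and 1 Dox− library were profiled. The authors removed adaptor-only, low quality and once-seen tags, searched the remaining clean tags, in sense and antisense, against a database of mouse reference tags from mm9 transcripts, and deposited unambiguous tag counts per gene. The submitters' processing notes name CASAVA, and the aligner is not given in the sources used here. The deposited TPM values are counts scaled by the clean tags of the library, with 0.01 for a gene without a tag and no length correction. They served to recover the library sizes, since for each library 1 total gave all 14678 TPM values. The table also holds log2 ratios, P-values, FDRs and ratios of the authors, which were not used. The labels mention mRNA fragmentation and the paper describes tag profiling, and this was not resolved.

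Counts were compared by the two-sided Audic-Claverie test over the 6547 genes with at least 200 combined copies, with Benjamini-Hochberg adjustment. Counting is the only error it knows, so no p-value is printed. Intervals of folds and shares are exact Clopper-Pearson intervals at 95%, and those of ratios between 2 genes are exact conditional intervals. A count of 0 allows up to 3 copies, 0.501 TPM in Dox+ and 0.513 TPM in Dox−. Transcript length, for levels per kilobase, was that of the longest GENCODE coding transcript on NCBIM37, and copies and length had a Spearman correlation of -0.22 across 6460 genes. The calls and intervals were tested on simulated data that held counting error only. Such data follow the model of the test, so they cannot show how the calls behave with a spread between pools. Alternatives were other scalings, filters, thresholds and tests, among them edgeR with assumed coefficients of variation, since the spread between pools cannot be estimated here.

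Every matching gene is named, with folds for the genes called, for the extremes of a class and for the immunoproteasome genes and their counterparts. In the pathway lists the genes with the most copies, those called and some others chosen after their values were seen are named, and a few listed genes are not reported here. Members and lists were chosen with earlier results of these data known. Python 3.11.15, numpy 2.4.6, scipy 1.17.1, pandas 2.3.3, matplotlib 3.10.9, R 4.3.3, edgeR 4.0.16 and DESeq2 1.42.0 were used.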

Additional observations from a re-analysis of the deposited data

How the results depend on the processing

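Of 76 alternative values, 67 stayed within 1.5 times a count or within the counting interval of a value, and no called value changed direction. The log2 ratio of the non-ATPase class changed sign, from a median of -0.05 to a mean of 0.03, both close to 0. The number of proteasome genes called higher in Dox−, 8 of 44, was 5 with DESeq2 size factors, which left out Psma3, Psma7 and Psmc6. With TMM library sizes it was 6. The share of all genes called higher was 13.8% with DESeq2 size factors and 14.1% with TMM, beside 15.2% in the main setting. The number of proteasome genes called higher was 0 with a fold change of at least 2, beside 4.61% of all genes. It was 0 with edgeR at an assumed coefficient of variation of 0.2, and 7 at 0.1, where 13.8% of all genes were called higher. The number called lower, 1, was 2 with an absolute log2 ratio above 0.5, which added Psmd9, and 0 under the same 2 settings. At a coefficient of variation of 0.2 the share of all genes called also dropped, to 2.11% higher and 2.46% lower. Under the limit of 0.5 the number called higher was 11, with Psmb3, Psmb5 and Psme3 added. At that limit 18.8% of all genes tested were called higher and 17.8% lower. The mean log2 ratio of the ATPases was 0.20 and their median 0.41, since Psmc4 lies far from the others. As a share of the tags counted in the table, the proteasome genes held 0.687% in Dox+ and 0.773% in Dox−. The scalings moved all log2 ratios by -0.03 to 0.04. No replicate could be left out and no paired analysis was possible because each condition has 1 library. Genes with few copies, such as Psmb9 and Psma8, could differ several-fold without being detected at this depth.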
